A study of Mus musculus with 2 samples.

Results

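The genes of the cytosolic ribosome were compared in the small intestine of mice fed a conventional chow or a food antigen-free diet. They were chosen by name alone from a whole-genome microarray, and the family was picked for study with its lower ratios in the food antigen-free diet already known, so those ratios are a description. The names took in every non-control probe called Rpl or Rps followed by a digit, or Rplp0 to Rplp2, without the Rps6k kinases. This gave 144 of 41174 probes, carrying 85 gene names. Of these, 136 probes with 83 names were measured, meaning well above background in at least 1 diet on both arrays, among 25440 measured probes in all. The names include 76 canonical ribosomal protein genes (43 of the large subunit, 30 of the small subunit and 3 of the stalk), all of them measured. The other names are 7 paralogs (Rpl3l, Rpl7l1, Rpl22l1, Rpl36al, Rpl39l, Rps27l and Rps4y2), the pseudogene Rps15a-ps4, and Rps19bp1, which encodes a protein that binds Rps19. The 8 probes that were not measured include both probes of Rpl39l, the probe of Rpl3l and 1 probe each of Rpl22l1, Rps2, Rps6 and Rps19.

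C57BL/6 mice aged 6 to 8 weeks received either a conventional chow (Conv; LASQCdietRod16) or, for as many as 5 generations, a food antigen-free diet (FAF) that contains amino acids. The labels mention both SPF and GF animals without saying which gave the RNA, and do not say how many animals were pooled or which stretch of the small intestine was taken. Total RNA of the 2 diets was hybridised together on 2 two-colour Agilent arrays. FAF carried Cy5 and Conv Cy3 on 1 array, and the dyes were exchanged on the other. Both arrays carry the same pair of RNA codes, so there is 1 RNA sample per diet, no test between the diets and no p-value. Each value below is a log2 ratio of FAF over Conv, averaged over both arrays, where a negative value means lower in FAF. The ± is the distance of either array from that mean. It holds the error of dyes and hybridisation, but nothing of how mice vary. Enterocyte genes were bright in both diets, such as Vil1 (80950 to 112954 intensity units) and Sis (42417 to 171965).

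A cytosolic ribosome is built from ribosomal RNA and a set of proteins that are needed in nearly equal numbers, and the genes of these proteins are transcribed at high rates in most cell types. Their mRNAs begin at a C followed by a run of pyrimidines, the 5′ terminal oligopyrimidine (TOP) tract, through which their translation is switched on and off as a group by mTORC1, a kinase complex that senses amino acids and growth factors. In the intestine, ribosome production is known to be high in the dividing cells of the crypts.

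The TOP tract can be read at the annotated start of several of these genes. The sequences printed here run from 60 bases before the RefSeq start to 20 bases from the start onward, with the tract in capitals (RefSeq, GRCm38.p6). Rpl35 and Rps27 are shown because they had the lowest and the highest ratio among the genes with a tract at this position, Rps18 because it is a common reference gene, and Rps6 because its protein is the classic substrate of S6 kinase. Rpl35 lies at chr2:39005112-39005191 on the minus strand, Rps27 at chr3:90213629-90213708 (minus), Rps18 at chr17:33955646-33955725 (minus) and Rps6 at chr4:86857348-86857427 (minus).
Rpl35: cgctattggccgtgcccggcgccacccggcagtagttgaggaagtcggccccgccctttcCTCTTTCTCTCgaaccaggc
Rps27: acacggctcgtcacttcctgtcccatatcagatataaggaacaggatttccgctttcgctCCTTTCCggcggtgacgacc
Rps18: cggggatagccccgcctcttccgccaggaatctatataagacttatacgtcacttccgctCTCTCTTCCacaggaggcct
Rps6: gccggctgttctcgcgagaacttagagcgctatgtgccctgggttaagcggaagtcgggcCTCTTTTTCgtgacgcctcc

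Ribosomal protein mRNA was lower in FAF across nearly the whole family, by a small and similar amount. The 136 probes had a median log2 ratio of -0.33, that is 1.26-fold lower in FAF, with quartiles of -0.39 and -0.27. The extremes were -0.60 and 0.06. Of these probes, 127 (93.4%) were below 0 on both arrays, against 37.7% of all measured probes, 2 were above 0 on both and 7 changed sign between the arrays. A mean of at least 1.2-fold lower with the same sign on both arrays was reached by 103 members (75.7%), against 13.7% of all measured probes. None was higher by that amount, where 15.4% of all measured probes were. No member was lower or higher by 2-fold with at least 1.5-fold on each array, a size that 0.692% and 1.25% of all measured probes reached. Where each array was only centred on its median, with no loess, the trend of the dyes with brightness gave the members medians of 0.53 and -1.18 on the 2 arrays, so that 2 members had the same sign on both and 1.2-fold, while the mean of both arrays stayed at -0.32. In whole tissue, fewer cells of a type and less RNA per cell cannot be told apart.

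**Figure D1:**
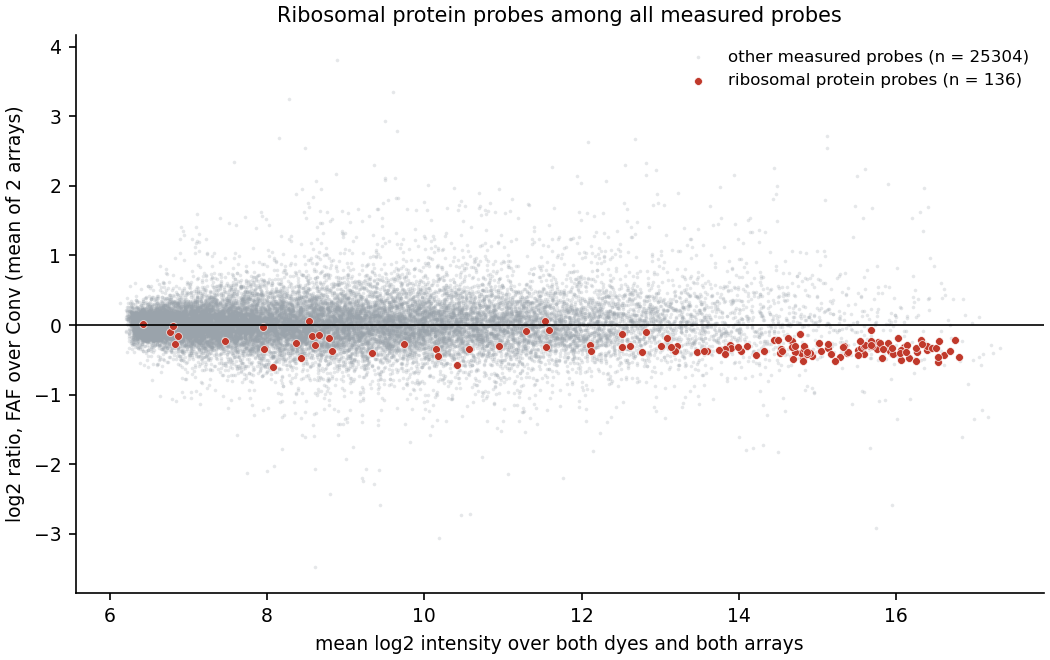
Log2 ratio of FAF over Conv (mean of both arrays) against mean log2 intensity, for 25304 other measured probes (grey) and 136 ribosomal protein probes (red). Most red points form a narrow band around -0.33, below the middle of the grey cloud, while the dimmest scatter more widely and lie nearer to 0.

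These probes are among the brightest on the array: 25 of the 100 brightest are members, although members are 0.535% of all measured probes, and 98.8% of the other measured probes are dimmer than their median. Brightness depends on the probe as well as on the mRNA, and dye error depends on brightness. The members were therefore set beside the 1417 other probes with a mean log2 intensity between the members' quartiles, 12.73 and 15.76. These equally bright probes had a median of 0.04, so the members lay 0.37 below them on the log2 scale (a difference of -0.37, or 1.29-fold). At 1.2-fold, 288 equally bright probes (20.3%) were lower and 391 (27.6%) higher. At 2-fold, 22 were lower and 63 higher. The equally bright probes leaned to the dim end of their range, with a median log2 intensity of 13.6 against 14.8 for the members. Other probes in the members' 3rd and 4th quartiles of brightness had medians of 0.04 and 0.05. Of these, 24.7% and 30.0% were lower by 1.2-fold, and 27.4% and 32.2% higher.

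The members also differed from equally bright probes in how closely they kept together. Their standard deviation was 0.12, against 0.51 for the equally bright probes. Between -0.50 and -0.20 lay 111 members (81.6%) and 18.8% of the equally bright probes. The shift itself was not extreme: 16.2% of the equally bright probes and 9.89% of all measured probes lay below the members' median. The members were lower together by an amount that many single genes exceeded.

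**Figure D2:**
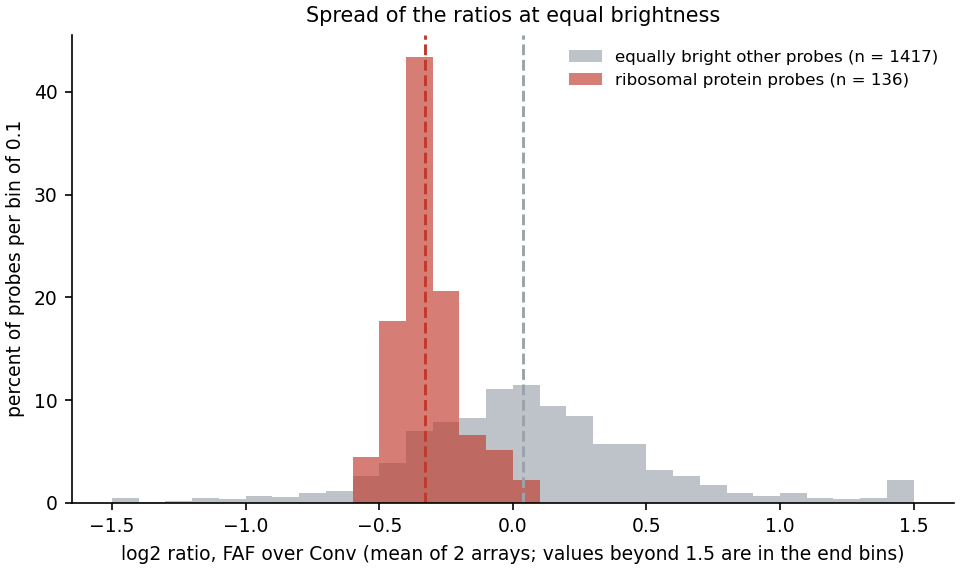
Distribution of the log2 ratio (mean of both arrays, bins of 0.1) as a percent of probes, for 136 ribosomal protein probes (red) and 1417 equally bright other probes (grey). Dashed lines mark the medians, -0.33 and 0.04, and the red distribution is much narrower (standard deviation 0.12 against 0.51).

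The large subunit, the small subunit and the stalk were lower to a similar degree. With 1 value per gene, from its brightest measured probe, the 76 canonical genes had a median of -0.36 and ran from -0.57 to -0.13, and 75 of them were below 0 on both arrays. The exception was Rps23, a protein of the decoding centre. Of the canonical genes 63 were at least 1.2-fold lower, against 16.0% of all measured genes, and 0 were higher, against 16.4%. The 43 genes of the large subunit had a median of -0.36 (36 lower by 1.2-fold), and the 30 of the small subunit one of -0.35 (24 lower). The stalk proteins Rplp0, Rplp1 and Rplp2, which recruit elongation factors to the large subunit, had a median of -0.46, and all 3 passed.

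**Figure D3:**
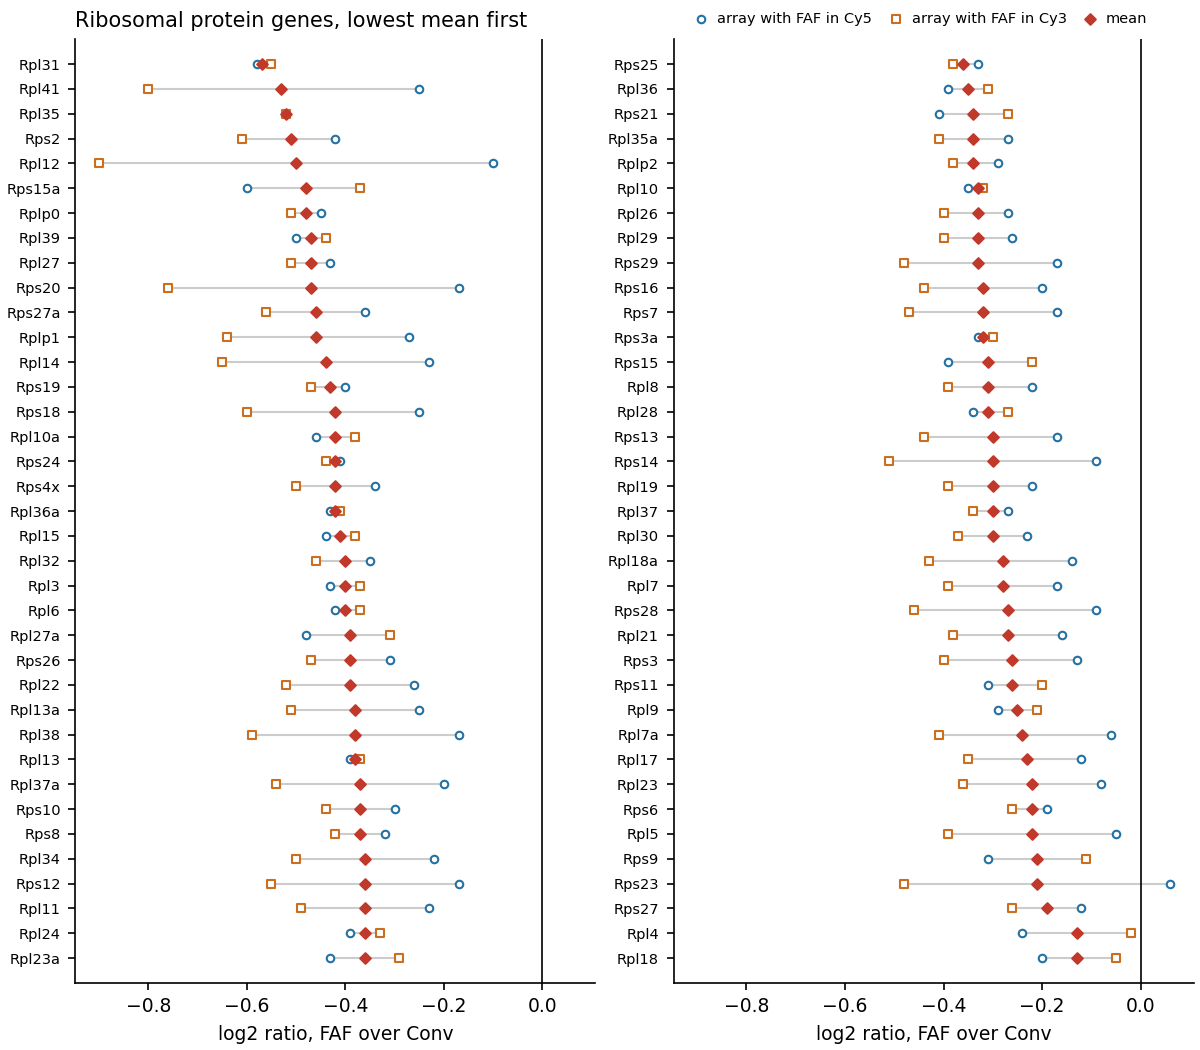
Log2 ratio of FAF over Conv for 74 of the 76 canonical ribosomal protein genes, lowest mean first, on the array with FAF in Cy5 (circles), on the array with FAF in Cy3 (squares) and as their mean (diamonds). Every mean shown is below 0, from -0.57 to -0.13, and the lines joining the arrays of a gene often overlap those of its neighbours.

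The order of the genes within this band cannot be read from these arrays. Over the 136 members, one array's ratios correlated with the other's at a Pearson r of 0.13, against 0.94 over the 1417 equally bright probes, where ratios span a wider range. Both arrays hold the same RNA pair, so this describes how well a ratio repeats, not how animals differ. The genes at either end are therefore given as values only.

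At the low end stood Rpl31 with -0.57 ± 0.01, a large subunit protein near the exit of the peptide tunnel. Its intensity was 1166 and 1085 in FAF, and 1743 and 1592 in Conv. Rpl35, also a protein of the tunnel exit, had -0.52 ± 0.00, with 32609 and 31165 in FAF against 46855 and 44736 in Conv. For both genes each FAF reading was below each Conv reading, and the arrays gave nearly the same ratio.

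Rps2, a small subunit protein at the mRNA entry, had -0.51 ± 0.10, with 70474 and 59980 in FAF and 94040 and 91428 in Conv. Again each FAF reading was below each Conv reading, in repeat readings of 1 RNA pair. Rpl41, a very short basic protein, had -0.53 ± 0.28, since the arrays gave -0.25 and -0.80. Rpl12, at the base of the stalk, had -0.50 ± 0.40, from -0.10 and -0.90, and its place at the low end rests on the array with FAF in Cy3.

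At the high end were Rpl18 with -0.13 ± 0.08 and Rpl4, which lines the peptide tunnel, with -0.13 ± 0.11. Rpl18 gave 26918 and 26752 in FAF, and 31003 and 27683 in Conv. Rpl4 gave 5323 and 5937 in FAF, and 6276 and 6008 in Conv. In both genes the FAF readings were close to the Conv readings and below them. Rps27 had -0.19 ± 0.07, Rps9 -0.21 ± 0.10 and Rpl5 -0.22 ± 0.17. Rps23 had -0.21 ± 0.27, from 0.06 on the array with FAF in Cy5 and -0.48 on the other. The array file places the Rps27 probe on another chromosome than RefSeq places the gene, the only such case among 95 member probes that could be compared by chromosome.

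Several members have duties outside the ribosome or are used as references for other measurements. Rplp0, the stalk scaffold and a common reference gene in quantitative PCR, had -0.48 ± 0.03, with 62976 and 61346 in FAF and 85991 and 87215 in Conv. Rps18 had -0.42 ± 0.18, Rpl32 -0.40 ± 0.05, Rpl13a -0.38 ± 0.13 and Rps29 -0.33 ± 0.16. At their brightest probes all 5 reference genes were thus 1.25-fold to 1.39-fold lower in FAF on these arrays. Other probes gave -0.38 and -0.07 for Rplp0, and -0.30 and -0.10 for Rps18. Rps6 had -0.22 ± 0.04, from 24525 and 23675 in FAF and 27937 and 28328 in Conv. Rpl11, which binds the p53 regulator Mdm2 together with Rpl5 and 5S RNA, had -0.36 ± 0.13.

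The measured paralogs, apart from Rps4y2, were lower by amounts like those of the canonical genes. Rpl22l1 had -0.37 ± 0.10 and Rpl22 -0.39 ± 0.13, and Rpl36al had -0.37 ± 0.07 beside -0.42 ± 0.01 for Rpl36a. Rpl7l1 had -0.35 ± 0.06 beside -0.28 ± 0.11 for Rpl7, and a dimmer Rpl7l1 probe gave -0.19. Rps27l, a target of p53, had -0.34 ± 0.07 beside -0.19 ± 0.07 for Rps27. The probe named Rps4y2 stood apart from Rps4x, with -0.10 ± 0.09 against -0.42 ± 0.08, although a dimmer Rps4x probe gave -0.16. Rpl3 (-0.40 ± 0.03) and Rpl39 (-0.47 ± 0.03) have paralogs, Rpl3l and Rpl39l, that were not well above background here. Rps19bp1 had -0.32 ± 0.00 and the pseudogene Rps15a-ps4 -0.37 ± 0.11. Processed copies of ribosomal protein genes are many and nearly identical, so a probe may bind mRNA of more than the gene it is named for.

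Probes of the same gene mostly agreed. Of the member names, 42 had more than 1 measured probe, and the median range between probes of a gene was 0.05. In 9 genes the range exceeded 0.25, and in 1, Rps24, it exceeded 0.5. The brightest Rps24 probe, on mm9 chr14:25311322-25312647 over a split position, gave -0.42 ± 0.02. Further along the chromosome, the probe at chr14:25314669-25314728 gave 0.06 ± 0.26 and the one at chr14:25315989-25316048 gave -0.60 ± 0.03. These dimmer probes carry accessions other than a RefSeq mRNA, and the probe of -0.60 is the lowest of all member probes.

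In Rps15a, Rpl27, Rpl22 and Rpl23 too, the brighter probe was lower in FAF and the dimmer one near 0: -0.48 and 0.02, -0.47 and -0.02, -0.39 and -0.07, and -0.22 and 0.06. The 8 other genes past 0.25 also include Rps12, Rps18, Rps4x and Rplp0. Brightness did not separate the probes of Rplp0, whose 3 probes gave -0.48, -0.38 and -0.07. The latter 2 are shown because they differ although both are bright. The probe of -0.38 ± 0.12 was spotted 10 times and has no position in the array file, and the probe of -0.07 ± 0.20 lies at mm9 chr5:116011423-116011482.
Rplp0 probe with -0.38: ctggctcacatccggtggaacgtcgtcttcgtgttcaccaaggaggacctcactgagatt
Rplp0 probe with -0.07: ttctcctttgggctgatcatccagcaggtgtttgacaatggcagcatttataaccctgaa

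Over all members, dim probes lay nearer to 0. The 19 probes with a mean log2 intensity under 10 had a median of -0.23, and the 117 brighter ones -0.34. The 116 probes with a RefSeq mRNA accession had a median of -0.34, and the 20 with other accessions -0.26. Those 20 were also dimmer (median log2 intensity of 8.62 against 14.9), and the 8 of them at 10 or above had a median of -0.29. Where the array file gives a split position, as for a probe that spans an intron of the gene, the median was -0.34 (39 probes). It was -0.32 for the 94 placed on a stretch no longer than the probe length of 60 bases. A few of these stretches are shorter than the probe, such as 14 bases for an Rps3 probe. Brightness and mean ratio had a Pearson correlation of -0.38 across the 136 members and of -0.19 across the 117 brighter ones. The GC content of the probe and the ratio had one of -0.05 across the 136. These are correlations across probes, which share both arrays and are not independent replicates.

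At the bright end the 2 arrays differed. The brightest 34 members had a median of -0.22 on the array with FAF in Cy5 and -0.47 on the other. The 90 other probes of that brightness range were displaced the same way, with 0.17 and -0.11. In both arrays the members thus lay below other probes of their brightness. In the next 34 members by brightness, the arrays gave -0.35 and -0.35, and in the 34 after those -0.34 and -0.32.

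**Figure D4:**
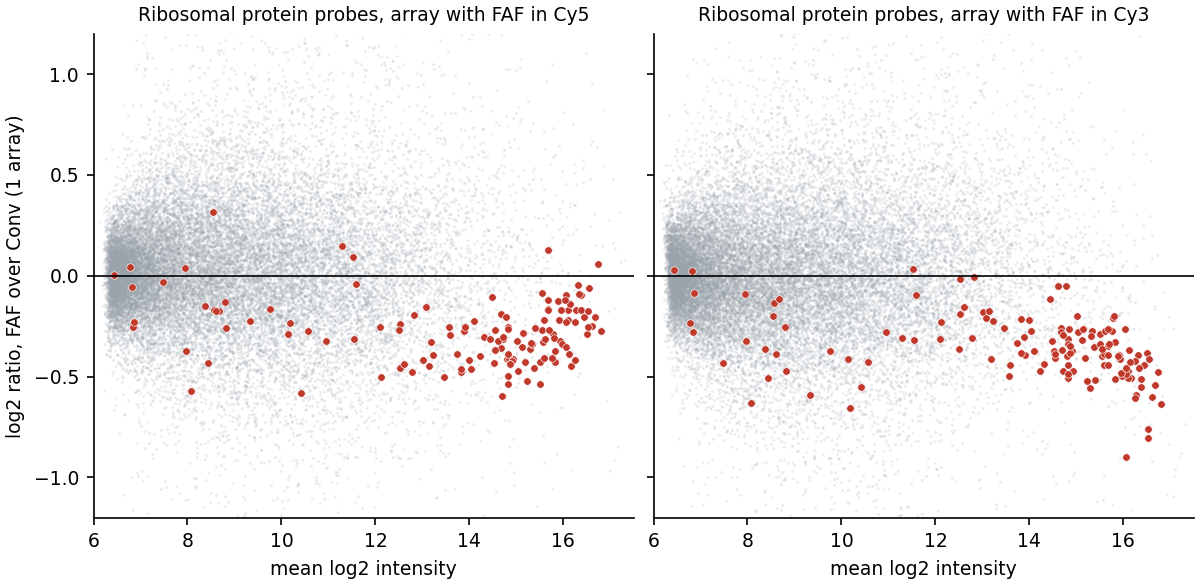
Log2 ratio of FAF over Conv against mean log2 intensity on each array, for ribosomal protein probes (red) and other measured probes (grey; ratios beyond the vertical range of the axis are not drawn). Most red points are below 0 on both arrays, and at the bright end they bend up on the array with FAF in Cy5 and down on the other (medians of -0.22 and -0.47 for the brightest 34).

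Genes with a TOP tract exactly at the RefSeq start had ratios like those of the other canonical genes. RefSeq promoter windows, 250 bases before to 50 after each gene start, were found for 56 canonical genes in 66 windows. A C exactly at the RefSeq start followed by 4 or more pyrimidines was present in 13 of them (19.7%), against 2.51% of all 32851 windows of the same length. The 13 genes with this tract had a median of -0.37 (range -0.52 to -0.19), and the other 43 one of -0.36 (range -0.57 to -0.13). An annotated start can miss the true first base, and a gene without these letters there may still carry a tract. The comparison therefore does not separate genes with a tract from genes without one.

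CCGGAAG, letters of the ETS family's binding site, were found on either strand in 36.4% of the family's windows and 8.86% of all. The TATA box letters TATAAA were in 9.09% and 13.6%. These searches describe the windows and do not show binding.

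Ribosomal proteins outside the naming rule were partly lower. Rpsa, also known as the laminin receptor, had -0.43 ± 0.01, and Rack1, a scaffold on the small subunit, -0.42 ± 0.29. Fau, whose product is a ribosomal protein fused to a ubiquitin-like protein, had 0.00 ± 0.15. Of 4 measured, Rpsa and Rack1 were at least 1.2-fold lower (50%, against 16.0% of all measured genes) and 0 were higher (against 16.4%). The list median was -0.05 on the array with FAF in Cy5 and -0.47 on the other, and 2 of the 4 changed sign between the arrays. The bright genes Rack1 and Fau were both lower on the array with FAF in Cy3 (-0.71 and -0.15) and gave -0.12 and 0.16 on the other.

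Genes for building ribosomes were lower as well. Of 40 ribosome biogenesis genes, 29 were at least 1.2-fold lower (72.5%, against 16.0% of all measured genes) and 0 higher (against 16.4%), with a median of -0.36. Nhp2, a protein of the RNPs that guide pseudouridylation, had -0.83 ± 0.05, with intensities of 2856 and 3334 in FAF and 5237 and 5709 in Conv. Nip7, needed for maturation of ribosomal RNA, had -0.65 ± 0.00. These genes are far dimmer than the ribosomal protein genes (median log2 intensity of 9.89 against 15.6), and the 2 arrays gave list medians of -0.37 and -0.38.

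Mitochondrial ribosomal proteins, which belong to the separate ribosome inside mitochondria, had a median of -0.27 over 78 genes. Of these 39 were at least 1.2-fold lower (50%, against 16.0% of all measured genes) and 0 higher (against 16.4%). Mrps28 had -0.75 ± 0.02 and Mrpl21 -0.50 ± 0.08. Their spread (standard deviation 0.17) was wider than that of the canonical cytosolic genes (0.09).

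Translation factors and other genes known for TOP mRNAs had a median of -0.14 over 24 genes. By 1.2-fold, 4 were lower (16.7%, against 16.0% of all measured genes) and 1 higher (4.17%, against 16.4%), so the share of lower genes was near that over all genes. Hnrnpa1, an RNA-binding protein, had -0.43 ± 0.05, and Eif4a2, a helicase of initiation, was the higher one with 0.58 ± 0.17. The other lower genes, named after their values were seen, were Eef1d and Eef1g, subunits of the elongation factor complex, both with -0.35, and Pabpc1, the poly(A)-binding protein, with -0.32. Eef1a1, the factor that brings aminoacyl-tRNA to the ribosome and whose mRNA carries a TOP tract, had -0.10 ± 0.01.

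Growth regulators of ribosomal protein synthesis showed no common direction, with a median of 0.04 over 22 genes. By 1.2-fold, 2 were lower (9.09%, against 16.0% of all measured genes) and 3 higher (13.6%, against 16.4%), both shares under those over all genes. Those named here are single values. The lower genes were Eif4ebp1, a translation repressor that mTORC1 phosphorylates, with -0.57 ± 0.02, and the transcription factor Myc with -0.49 ± 0.03. Myc gave 883 and 931 in FAF, and 1270 and 1276 in Conv. The higher genes, named after their values were seen, were Max with 0.48 ± 0.04, Mxd1 with 0.42 ± 0.02 and Eif4ebp3 with 0.37 ± 0.01. Max is the partner of Myc, and Mxd1 competes with Myc for Max. Mtor itself had 0.05 ± 0.07 and Rps6kb1 -0.04 ± 0.08. No gene of these lists passed 2-fold, which 0.880% of all measured genes did downwards and 1.53% upwards.

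**Figure D5:**
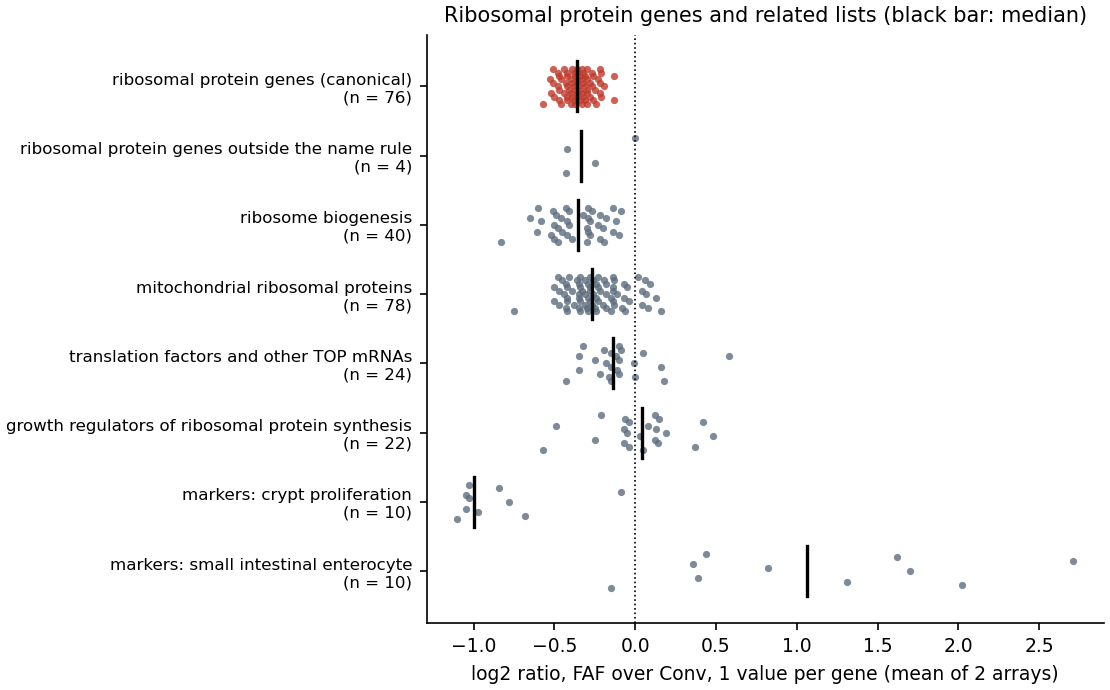
Log2 ratio of FAF over Conv with 1 point per gene (mean of both arrays) for the canonical ribosomal protein genes (red), related lists and markers of crypt proliferation and enterocytes (grey-blue), with the median of each list as a black bar. The medians run from -1.0 for crypt proliferation through -0.36 for ribosomal protein genes to 1.06 for enterocyte markers.

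Markers of several cell types differed between the diets as well. The 1.2-fold counts stand beside 16.0% of all measured genes lower and 16.4% higher. Of 10 markers of crypt proliferation 9 were at least 1.2-fold lower in FAF, with a median of -1.0, and their summed intensity was 24898 to 25352 in FAF and 40584 to 43371 in Conv. Of 10 enterocyte markers 9 were higher, with a median of 1.06 and sums of 892969 to 980176 in FAF and 416489 to 510366 in Conv. Paneth markers had a median of -0.96, all 6 lower, with sums of 241176 to 319239 in FAF and 517507 to 549422 in Conv.

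Among markers of other cells, all 6 measured of adipocytes were lower (median -1.67, sums of 1500 to 1573 against 6870 to 7201), 7 of 8 of smooth muscle (median -0.55, 61546 to 62074 against 88598 to 97104) and 5 of 6 of plasma cells (median -0.52, 51384 to 62540 against 78667 to 79433). T cell markers had a median of -0.37, with 6 of 8 lower and sums of 2206 to 2242 against 3071 to 3378. Goblet markers had -0.24, with 3 of 7 lower and sums of 360417 to 405033 against 428966 to 467408. Of 6 B cell markers 3 were measured (median -0.27, 2 lower, 1086 to 1182 against 1868 to 1952). Of 7 markers of exocrine pancreas 5 were measured (median 0.08, 1 higher, 1040 to 1063 against 746 to 813). The medians of the dim lists moved with the processing. With the scanner software's ratio they were -0.90 for B cells, -0.62 for T cells, -2.33 for adipocytes and 0.37 for exocrine pancreas, and with a normexp offset of 10 they were -0.48 for B cells and 0.14 for exocrine pancreas. Without the filter on dim probes the B cell median was -0.15, and without background subtraction that of exocrine pancreas was 0.18. Leaving out the array with FAF in Cy3 made the T cell median -0.21, and leaving out the array with FAF in Cy5 made it -0.53. The part of these cells in the ribosomal protein result was not tested.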

How the data were processed

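The deposited scanner files hold, per the file headers, the spot intensity of each dye and a log10 ratio of Cy5 over Cy3 from Agilent Feature Extraction 11.5.1.1. The deposited value table equals that log10 ratio to within 5.0e-08, has a median of 0.000 per column and is Cy5 over Cy3 on both arrays. The array files were read with limma 3.58.1 in R 4.3.3: normexp with an offset of 50, loess of span 0.3 within each array with control spots at weight 0, log2 ratios turned to FAF over Conv by the labelled dyes, and the mean of both arrays. Control spots and outlier spots were left out, and spots of a probe were averaged. No spot was saturated (0 in all). Intensities of single readings in the text are after loess within each array and a further step (limma's Aquantile). That step gives both arrays the same distribution of brightness. The ratios were taken before that step. The number of arrays, 2, and of RNA samples, 1 per diet, limits the precision.

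A gene was represented by its brightest measured probe. The 1.2-fold and 2-fold rules of size are not tests. The scripts were tested on simulated data. Accessions of 27668 probes, 118 of them members, matched RefSeq (GRCm38.p6). Probes are placed as in the array files (mm9), and exons and introns of that build were not used here.

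The family, the lists and the rules were chosen with earlier results of these data known. Named are the 6 highest and 6 lowest canonical genes, paralogs with their partners, 5 reference genes, Rps6, Rpl5 and Rpl11, genes with probes over 0.5 apart, other names past 1.2-fold, and 2 genes of largest absolute ratio per related list. The other genes named for an illustration were picked after their values were seen. A few genes that these rules would name are not reported here, though they stay in the counts and medians.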

Additional observations from a re-analysis of the deposited data

How the results depend on the processing

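The members' median stayed between -0.38 and -0.28 over 15 alternatives, and its difference from equally bright probes between -0.42 and -0.30 over 18. The lowest median came from loess with the members at weight 0, so that their own shift could not pull the curve. Of the 237 alternatives of the family's and lists' summaries and the 636 of single genes and marker lists, 0 were classed as reversed. By less than their spread (counts: under 1.5 times) moved 222 and 574 of these. That class leaves out Rps23, which changed sign on a single array: 0.06 with FAF in Cy5 against a mean of -0.21.

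Median centring in place of loess left the dye trend in each array: the members' medians were 0.53 with FAF in Cy5 and -1.18 with FAF in Cy3, with a mean of -0.32. Because the signs then differed, 2 members were 1.2-fold lower in place of 103, and the median distance of an array from the mean rose to 0.85 for members and 0.79 for equally bright probes. The count was 65 with the mean of each gene's probes, which has fewer units, and 1 at 1.5-fold. On a single array, 0 to 1 members were higher, the interquartile range was 0.19 to 0.23 and 1 to 3 genes had probes over 0.5 apart. That last number, 1 in the report, was 2 with an offset of 10, 3 with the members at weight 0, 2 with a loess span of 0.7 and 2 without the filter on dim probes. The cause was not tested. The ribosome biogenesis median was -0.42 with an offset of 10 and -0.45 with the scanner software's ratio or the deposited table.

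No paired analysis was possible because each diet has 1 RNA sample. Dim probes near background bound what the ratios can show, since normexp with an offset draws them towards 0.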
